A study of Mus musculus with 16 samples.

Results

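The genes described here encode proteins of the epithelial and endothelial tight junction, namely the claudins Cldn1, Cldn3, Cldn4, Cldn5, Cldn7 and Cldn8, occludin (Ocln), zonula occludens 1 (Tjp1) and junctional adhesion molecule A (F11r). They were chosen by name, as every probe whose accession maps to 1 of these 9 symbols, which gave 11 probes of the 55681 on the array. All 11 probes passed the filter on dim signals and all 9 genes were tested, among 26789 genes in all. Cldn4 and Ocln had 2 probes each and the other genes 1.

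RNA of the bladder body of C57BL/6 mice was hybridized to 1-colour Agilent arrays, with 1 mouse on each of 16 arrays. The mice were mature (MAT, 12 months old) or aged (AGED, 27 to 30 months old), with 4 males and 4 females at each age, and no genotype or treatment was given beyond strain, sex and age. All female arrays were on 1 slide and all male arrays on another, and within each slide MAT arrays were in 1 row and AGED arrays in the other, so sex and slide, and age and row, cannot be told apart. All age directions, here and below, are AGED less MAT as the arrays are labelled, and they are opposite to those the study lists for its leading genes, S100a9 among them. Of 8 such genes tested, 8 had the opposite sign in both sexes, some of them by little. Which of the labels and the list is turned was not tested, so every age direction rests on the labels, and so do the ages at which differences between the sexes are given. Between 52.4% and 68.3% of probes were well above background on an array, and the lowest share was on AGED male replicate 1. Values are the log2 processed signal less the 75th percentile of the array, so 0 is the signal of a probe at that percentile, and a level can be compared between arrays but not between genes. The RNA is of the whole bladder wall, in which fewer cells of a type and less RNA per cell cannot be told apart. The urothelium markers Upk1a, Upk2 and Upk3a, which encode uroplakins of the apical plaque, and the smooth muscle markers Myh11, Acta2 and Cnn1 were well above background on all 16 arrays.

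The tight junction closes the space between neighbouring epithelial cells near their apical surface. Claudins span the membrane and form the strands that seal this space or make it permeable to selected ions, so the claudins that a cell makes set how tight its junctions are. Occludin lies in the same strands, the junctional adhesion molecules are found at the same junctions, and ZO-1 ties the strands to the actin cytoskeleton from the inside. In the bladder the junctions between the umbrella cells, the outermost urothelial cells, keep urine and its solutes out of the wall. Cldn5 is best known from endothelial cells, where it seals the walls of vessels, so that in bladder wall RNA it need not come from the urothelium.

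The promoters of Cldn4, Cldn7 and Cldn5 are shown because these 3 genes had age values that did not overlap in females, and because Cldn4 and Cldn5 varied in opposite directions between mice. Each is the stretch of 250 bases just upstream of an annotated start (RefSeq, GRCm38.p6), 5′ to 3′ on the strand of the gene. Capitals mark matches, on either strand, to the GC box GGGCGG, the TATA box TATAAA, the E-box CAGGTG that Snail family repressors bind, the ETS core GGAAG, the grainyhead core AACCNGTT and the AP-1 site TGANTCA.
Cldn4, chr5:134946935-134947184, minus strand: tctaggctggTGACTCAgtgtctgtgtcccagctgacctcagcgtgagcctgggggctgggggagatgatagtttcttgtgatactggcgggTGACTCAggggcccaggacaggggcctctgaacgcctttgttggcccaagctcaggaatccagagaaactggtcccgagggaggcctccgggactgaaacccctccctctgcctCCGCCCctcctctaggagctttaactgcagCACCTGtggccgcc
Cldn7, first of its starts, chr11:69964529-69964778, plus strand: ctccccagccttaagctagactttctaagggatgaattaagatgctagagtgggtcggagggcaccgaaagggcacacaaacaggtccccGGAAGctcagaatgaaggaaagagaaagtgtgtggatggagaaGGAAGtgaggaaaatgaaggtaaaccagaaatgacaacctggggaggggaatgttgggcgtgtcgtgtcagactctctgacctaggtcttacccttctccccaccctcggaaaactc
Cldn5, chr16:18776597-18776846, plus strand: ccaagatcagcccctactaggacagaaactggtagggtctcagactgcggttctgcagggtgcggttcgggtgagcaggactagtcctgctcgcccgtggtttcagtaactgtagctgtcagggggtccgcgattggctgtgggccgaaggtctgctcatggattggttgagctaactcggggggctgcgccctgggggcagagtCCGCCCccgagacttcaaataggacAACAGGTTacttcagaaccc

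The Cldn4 window held 2 AP-1 sites, 240 and 158 bases upstream of the start, with 1 GC box and 1 CAGGTG E-box close to it. Of all 32851 promoter windows, 6.75% held an AP-1 site, 17.2% a CAGGTG E-box and 32.7% a GC box. The Cldn7 window shown held 2 ETS cores, a short motif found in 64.1% of windows. The window of the second Cldn7 start, not shown, held 1 GC box, 2 CAGGTG E-boxes and 3 ETS cores. The Cldn5 window held 1 GC box and 1 grainyhead core, the latter found in 1.79% of windows. None of the 3 windows shown held a TATA box, which 12.4% of windows hold. F11r was the other gene of the 9 with an AP-1 site in its window (1 site). The letters overlapped in no case in the windows shown, and a match is a description of the letters, not a bound site. Windows were found for 8 of the 9 genes. In the same annotation Cldn3 and Cldn4 are neighbouring coding genes on chromosome 5, Cldn1 lies beside Cldn16 and Cldn8 beside Cldn17 on chromosome 16, and Ocln lies beside Marveld2, the gene of tricellulin, on chromosome 13.

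No gene of the 9 was called between AGED and MAT bladders in either sex. A gene was called when limma gave an adjusted p (Benjamini-Hochberg over all genes tested) under 0.05 and a change of at least 2-fold, which 0.851% of all genes met in males and 0.19% in females. In males, 6 of the 9 had a fitted change above 0 and 3 below, with a median of 0.05 on the log2 scale against 0.0015 over all genes. None of the 9 had an unadjusted limma p under 0.05 in males, where 16.2% of all genes had one. In females 3 were above 0 and 6 below, with a median of -0.03 against -0.0063 over all genes, and 2 of the 9, Cldn5 and Cldn7, had an unadjusted limma p under 0.05, against 10.5% of all genes. The 95% confidence interval of the change lay within 2-fold in both directions for 7 of the 9 genes in males and 7 of the 9 in females, against 73.7% and 78.5% of all genes.

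In females 3 of the 9 genes, Cldn4, Cldn7 and Cldn5, had no overlap of AGED with MAT values, where 10.8% of all genes were so separated. In males they overlapped for all 9, against 7.82% of all genes separated. The plot of each gene by array shows both.

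**Figure D1:**
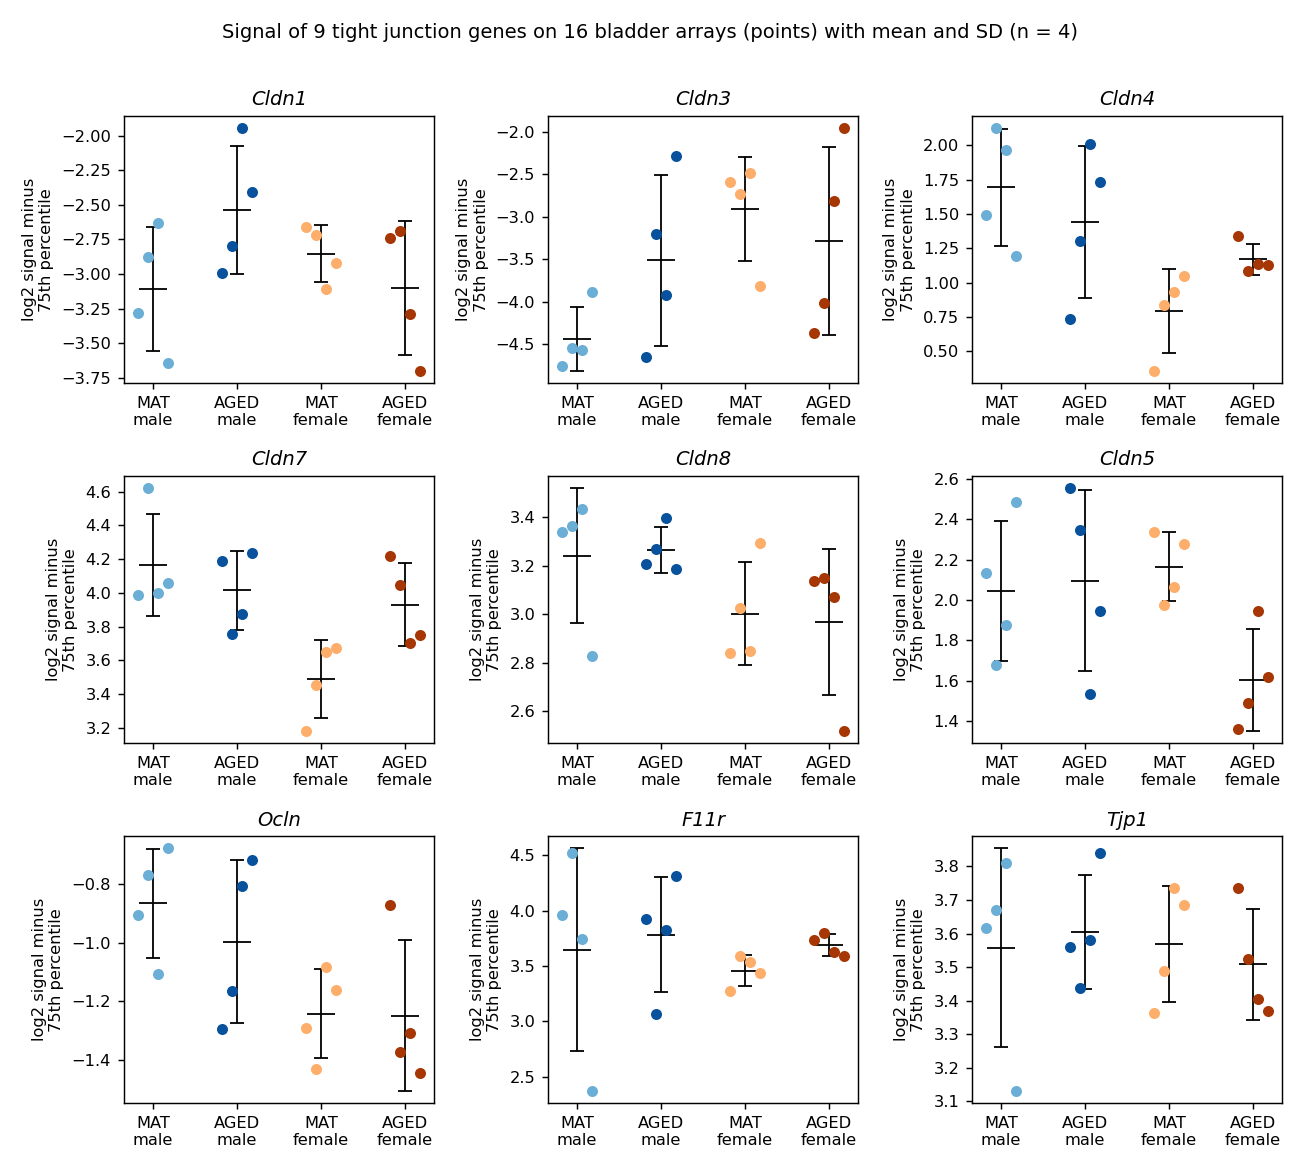
Log2 processed signal less the 75th percentile of the array (vertical axes) of the 9 genes in the 4 groups (horizontal axes). Points are arrays and bars the mean and SD (n = 4). The AGED female arrays lie below every MAT female array in Cldn5 and above every one in Cldn4 and Cldn7, while the male age groups overlap in every panel.

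Cldn4, a sealing claudin of many epithelia, had log2 signals of 0.36, 0.84, 0.93 and 1.05 on the MAT female arrays and of 1.34, 1.08, 1.14 and 1.13 on the AGED female arrays. The lowest AGED female array was just above the highest MAT female array. The fitted change was 0.38 ± 0.26 (SE, n = 4 per group, 95% confidence interval -0.17 to 0.93, limma adjusted p = 0.663). In males the signals were 1.49, 2.12, 1.96 and 1.20 on MAT arrays and 0.74, 1.30, 2.01 and 1.73 on AGED arrays. The male groups overlapped, with a fitted change of -0.25 ± 0.26 (SE, limma adjusted p = 0.660). The other Cldn4 probe gave -0.21, 0.31, 0.24 and 0.29 in MAT females and 0.62, 0.62, 0.59 and 0.27 in AGED females, a difference of 0.37 with groups that overlapped (exact two-sided permutation test, p = 0.0857).

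Cldn7, a claudin found along the sides of epithelial cells as well as in their strands, had log2 signals of 3.18, 3.45, 3.65 and 3.68 in MAT females and of 4.22, 4.05, 3.70 and 3.75 in AGED females. Every AGED female array was above every MAT female array, 2 of them by little. The fitted change was 0.44 ± 0.18 (SE, 95% confidence interval 0.05 to 0.83), a 1.36-fold difference, with an unadjusted limma p of 0.0291 and an adjusted p of 0.417. In males the signals were 3.99, 4.62, 4.00 and 4.06 on MAT arrays and 4.19, 3.76, 3.87 and 4.24 on AGED arrays, which overlapped. The male change was -0.15 ± 0.18 (SE, limma adjusted p = 0.708).

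Cldn5, the claudin of endothelial cells, had log2 signals of 2.34, 1.98, 2.07 and 2.28 in MAT females and of 1.36, 1.49, 1.95 and 1.62 in AGED females. Every AGED female array was below every MAT female array, replicate 3 by the least. The fitted change was -0.56 ± 0.22 (SE, 95% confidence interval -1.04 to -0.09), with the MAT level 1.48-fold the AGED level, an unadjusted limma p of 0.0228 and an adjusted p of 0.396. In males the signals were 2.13, 1.68, 1.88 and 2.49 on MAT arrays and 2.55, 2.35, 1.54 and 1.95 on AGED arrays. The male groups had nearly the same mean, 2.04 ± 0.35 and 2.10 ± 0.45 (SD, n = 4), and a fitted change of 0.05 ± 0.22 (SE, limma adjusted p = 0.932).

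With each array left out in turn, the female change lay between 0.34 and 0.52 for Cldn7, between -0.68 and -0.48 for Cldn5 and between 0.23 and 0.46 for Cldn4.

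Markers of the cells that could carry these genes were read beside them. Of 15 urothelium markers, 12 were above 0 and 3 below in females, with a median change of 0.22, and none was called. The mean log2 signal of these markers ranged from 4.96 to 5.28 on MAT female arrays and from 5.16 to 5.44 on AGED female arrays, which overlapped. Among males, 9 of the urothelium markers were above 0 and 6 below, with a median of 0.14, and none was called. Upk2 was lower on every AGED male array than on every MAT male array (-0.45 ± 0.18, SE, limma adjusted p = 0.219). Another of the 15, Krt19, was higher on every AGED male array. Of 12 endothelium markers, 6 were above 0 and 6 below in females, with a median of 0.04, and their mean ranged from 0.47 to 0.78 on MAT and from 0.53 to 0.69 on AGED female arrays. The AGED female range of the endothelium markers thus lay within the MAT female range, while the Cldn5 signals of the same groups did not overlap. Among the 3 endothelium markers named by rule, the female changes of Cdh5 (VE-cadherin), Pecam1 and Kdr (a VEGF receptor) were 0.32, -0.13 and -0.09, with limma adjusted p of 0.818, 0.825 and 0.918. Cdh5 spread widely on MAT female arrays, from -1.34 to 0.73 (SD 0.98), against 0.18 to 0.70 on AGED female arrays. The part of this spread in the MAT female range of the marker mean was not tested. In males the endothelium markers had a median of -0.17, with 10 of 12 below 0 and 1, the endothelial transcription factor Erg, called (-1.49 ± 0.32, SE, limma adjusted p = 0.0304), named here after its value was seen. Their mean ranged from 0.63 to 0.91 on MAT and from 0.04 to 0.58 on AGED male arrays, which did not overlap, while the Cldn5 signals of the same groups did. No smooth muscle, fibroblast, mesothelium or Schwann cell marker was called in either sex, and of the leukocyte markers 2, S100a8 and S100a9, which encode the neutrophil protein calprotectin, were called in males. S100a8 was higher on the arrays labelled AGED by 2.43 ± 0.49 (SE, limma adjusted p = 0.0211) and S100a9 by 3.08 ± 0.56 (SE, limma adjusted p = 0.0125). In females the changes were 1.12 ± 0.49 and 1.62 ± 0.56 (SE, limma adjusted p of 0.436 and 0.322). The part of these cell types in the changes of single genes was not tested.

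Cldn1, a claudin needed for the barrier of the epidermis, had log2 signals of -3.28, -2.87, -2.63 and -3.64 in MAT males and of -2.99, -2.80, -1.95 and -2.41 in AGED males. The AGED male mean was the higher but the groups overlapped. The fitted change was 0.57 ± 0.28 (SE, 95% confidence interval -0.02 to 1.16, limma adjusted p = 0.323), the lowest adjusted p of the 9 genes in males. The female signals ranged from -3.11 to -2.66 on MAT arrays and from -3.70 to -2.69 on AGED arrays, a change of -0.25 ± 0.28 (SE, limma adjusted p = 0.821).

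Cldn3, a sealing claudin close in sequence and place to Cldn4, was the most variable of the 9, with an SD of up to 1.11 in a group. In MAT males its log2 signals were -4.76, -4.55, -4.57 and -3.89, and in AGED males -4.65, -3.20, -3.92 and -2.29. It was well above background on 15 of 16 arrays, all except AGED male replicate 1. The fitted male change was 0.92 ± 0.54 (SE), the largest of the 9 in size, with a 95% confidence interval of -0.22 to 2.07 and a limma adjusted p of 0.411. In females the signals were -2.60, -2.74, -2.49 and -3.82 on MAT arrays and -4.37, -4.01, -2.82 and -1.96 on AGED arrays. The AGED female arrays lay on both sides of the MAT female ones, and the change was -0.38 ± 0.54 (SE, limma adjusted p = 0.873). At this spread neither a 2-fold rise nor no change in males lies outside the interval.

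Cldn8, a sealing claudin known from the distal nephron, varied little. Its log2 signals ranged from 2.83 to 3.43 in MAT males, 3.19 to 3.40 in AGED males, 2.84 to 3.29 in MAT females and 2.52 to 3.15 in AGED females. The fitted age change was 0.02 ± 0.17 (SE) in males and -0.03 ± 0.17 (SE) in females, with limma adjusted p of 0.961 and 0.974. The 95% confidence intervals, -0.34 to 0.39 and -0.40 to 0.33, leave out a 2-fold change in either direction.

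Of the other strand and plaque genes, Ocln had log2 signals of -0.91, -0.77, -1.11 and -0.68 in MAT males and of -1.30, -1.17, -0.81 and -0.72 in AGED males. The groups overlapped, and the fitted change was -0.13 ± 0.16 (SE, limma adjusted p = 0.722) in males and -0.01 ± 0.16 (SE, limma adjusted p = 0.994) in females. The dimmer Ocln probe differed by -0.45 between AGED and MAT males (exact two-sided permutation test, p = 0.0857), with 1 AGED male array not well above background.

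F11r, an immunoglobulin-like adhesion molecule of the junction, spread most among males. Its log2 signals were 3.96, 4.52, 3.74 and 2.37 in MAT males and 3.93, 3.07, 3.83 and 4.31 in AGED males. MAT male replicate 4 was far below the rest. In females the signals were 3.28, 3.59, 3.54 and 3.43 on MAT arrays and 3.74, 3.80, 3.63 and 3.59 on AGED arrays, touching at the edge. The fitted changes were 0.14 ± 0.35 (SE, limma adjusted p = 0.875) in males and 0.23 ± 0.35 (SE, limma adjusted p = 0.887) in females. Both SE come from 1 spread shared by the 4 groups, so the female SE and adjusted p carry the male spread. The SD was 0.91 in MAT males and 0.52 in AGED males, against 0.14 in MAT females and 0.10 in AGED females. The exact two-sided permutation test over the female arrays alone gave p = 0.0571.

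Tjp1, whose product ZO-1 binds claudins and occludin inside the cell, ranged from 3.13 to 3.81 in MAT males, 3.44 to 3.84 in AGED males, 3.36 to 3.73 in MAT females and 3.37 to 3.74 in AGED females. All groups overlapped. The changes were 0.05 ± 0.16 (SE, limma adjusted p = 0.904) in males and -0.06 ± 0.16 (SE, limma adjusted p = 0.944) in females.

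The age change was also compared between the sexes. For 7 of the 9 genes the fitted change had opposite signs in males and females, against 41.7% of all genes, and several of these changes are close to 0. No gene of the 9 passed the test of the difference between the age changes (adjusted p under 0.05, with no fold limit), which 0.149% of all genes did. Cldn7 alone had an unadjusted limma p under 0.05, against 9.87% of all genes. Its male change was lower than its female change by 0.59 ± 0.26 on the log2 scale (SE, 95% confidence interval of the difference -1.14 to -0.04), with an unadjusted limma p of 0.0367 and an adjusted p of 0.471. For Cldn1 the male change exceeded the female one by 0.82 ± 0.39 (SE, limma adjusted p = 0.513), and for Cldn5 by 0.61 ± 0.31 (SE, limma adjusted p = 0.554).

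**Figure D2:**
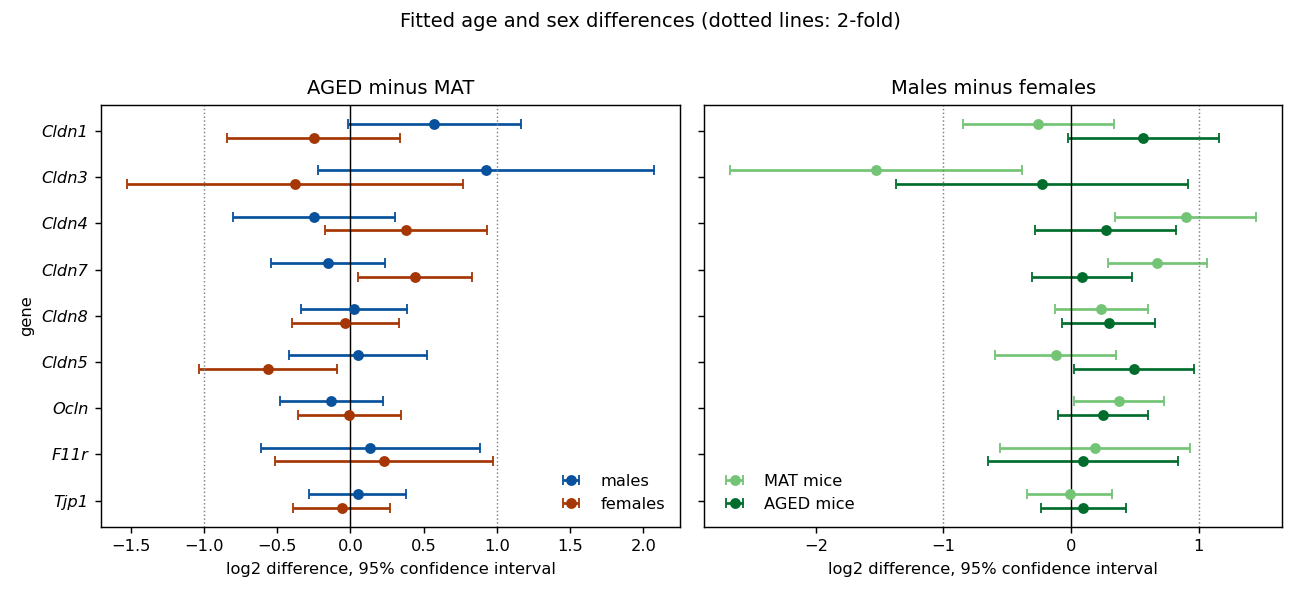
Fitted log2 differences of the 9 genes (points) with 95% confidence intervals (bars) from 1 limma model of 16 arrays. The left panel gives AGED minus MAT in males and females and the right panel males minus females at each age. Before adjustment, the female age intervals of Cldn5 and Cldn7 leave out 0. So do the sex intervals of Cldn3, Cldn4, Cldn7 and Ocln among MAT mice and of Cldn5 among AGED mice.

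Cldn3, Cldn4 and Cldn7 had larger fitted differences between males and females among MAT mice than between ages in either sex, though none was called. In MAT mice 0.164% of all genes were called between the sexes, and in AGED mice 3.12%, with 0 of the 9 in each. Before adjustment 4 of the 9, Cldn3, Cldn4, Cldn7 and Ocln, had a limma p under 0.05 in MAT mice, against 14% of all genes, and Cldn5 alone in AGED mice, against 26.2% of all genes. The sexes did not overlap for 3 of the 9 in MAT mice, where 18.4% of all genes were so separated, and for 1 of the 9, Cldn8, in AGED mice, where 13.7% were.

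Every MAT male array was above every MAT female array in Cldn4, with a fitted difference of 0.90 ± 0.26 (SE, 95% confidence interval 0.35 to 1.45), a 1.87-fold level with an unadjusted limma p of 0.00347 and an adjusted p of 0.141. The other Cldn4 probe was separated in the same way, with a difference of 0.86. Cldn7 was 1.60-fold higher in MAT males, a difference of 0.68 ± 0.18 (SE), with an unadjusted limma p of 0.00210 and an adjusted p of 0.120. Cldn3 went the other way, with every MAT male array below every MAT female array. Its MAT female level was 2.88-fold the MAT male level (difference -1.53 ± 0.54, SE, 95% confidence interval -2.67 to -0.38), with an unadjusted limma p of 0.0125 and an adjusted p of 0.219. With arrays weighted by their quality Cldn3 was called (limma adjusted p = 0.0110), and Cldn4 and Cldn7 had adjusted p of 0.00796 and 0.0161 with differences under 2-fold (0.96 and 0.61). The Cldn3 probe was dim, and the size of its difference depended on the background correction. With the normexp correction it was -0.69 (limma adjusted p = 0.322). Thus neighbouring Cldn3 and Cldn4 differed between MAT males and MAT females in opposite directions, each short of the threshold after adjustment with all arrays weighted alike. Ocln was 0.38 ± 0.16 (SE) higher in MAT males, with overlapping groups (limma, adjusted p = 0.328).

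In AGED mice the same differences were 0.27 ± 0.26 for Cldn4, 0.09 ± 0.18 for Cldn7 and -0.23 ± 0.54 for Cldn3 (SE), with limma adjusted p of 0.539, 0.804 and 0.828. Cldn8 was higher on every AGED male array than on every AGED female array, by 0.30 ± 0.17 (SE, limma adjusted p = 0.290). Cldn5 was 0.49 ± 0.22 (SE) higher in AGED males, with overlapping groups (limma, adjusted p = 0.172). The mean of the urothelium markers ranged from 5.34 to 5.71 on MAT male arrays, above the 4.96 to 5.28 of MAT female arrays, and from 5.37 to 5.75 on AGED male arrays against 5.16 to 5.44 on AGED female arrays. The urothelium markers were therefore higher in the MAT males, in which Cldn4 and Cldn7 were higher, and their part in these differences was not tested. Most of the male accessory gland markers were dim, with 9 of 11 well above background on no more than 2 arrays and not tested.

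The deviation of each array from the mean of its own group shows how the genes varied among mice of the same age and sex. Over the 36 pairs of the 9 genes the median Pearson correlation of these deviations over the 16 arrays was 0.22, and 24 pairs were above 0. The values of a pair come from the same arrays and scaling. No pair passed an adjusted p of 0.05 over the 36 (permutation test, deviations shuffled within groups 100000 times).

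The lowest correlation of all pairs was between Cldn4 and Cldn5, r = -0.85 (permutation p = 0.00162, adjusted p = 0.0583) and rho = -0.81 (permutation p = 0.00487, adjusted p = 0.0526). It was -0.75 without the 2 arrays farthest from the median in Cldn4, AGED male replicates 1 and 3. It was -0.97 on the 8 male arrays and -0.37 on the 8 female arrays, so that it rested mostly on the males. Each of the 8 male arrays that was above its group mean in Cldn4 was below it in Cldn5, and the reverse.

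**Figure D3:**
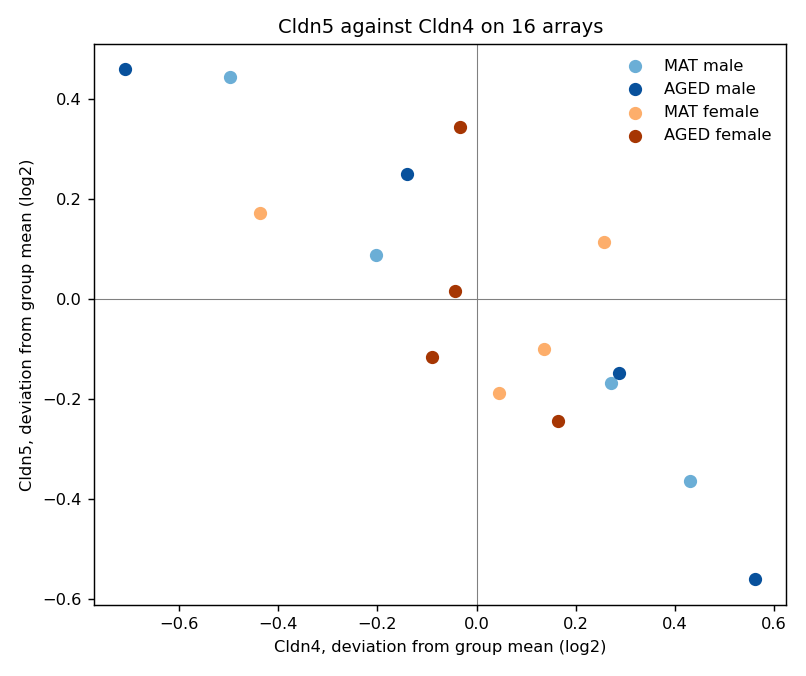
Deviation of each array from its group mean in log2 signal, Cldn4 on the horizontal and Cldn5 on the vertical axis, with 1 point per array and the 4 groups in colours. The 8 male arrays run from high Cldn5 with low Cldn4 to the reverse (r = -0.97), and the 8 female arrays are more scattered (r = -0.37).

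Cldn1 and Cldn5 also varied in opposite directions, r = -0.76 (permutation p = 0.00606, adjusted p = 0.0685) and rho = -0.76 (permutation p = 0.00584, adjusted p = 0.0526), with -0.80 without the 2 farthest arrays. By sex it was -0.95 in males and -0.39 in females. Cldn3 and Cldn8 had r = -0.69 (permutation p = 0.00329, adjusted p = 0.0592) and rho = -0.71 (permutation p = 0.00263, adjusted p = 0.0526), and r was -0.58 without the 2 farthest arrays, -0.40 in males and -0.88 in females. The highest correlation was between Tjp1 and F11r, r = 0.75 (permutation p = 0.0115, adjusted p = 0.0825) and rho = 0.64 (permutation p = 0.0212, adjusted p = 0.127). It was 0.61 without the 2 farthest arrays, MAT male replicates 3 and 4. Neighbouring Cldn3 and Cldn4 had r = 0.03.

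The same deviations were set against the mean deviation of each of the 8 marker lists, 72 relations in all, of which 3 passed an adjusted p of 0.05 for r, narrowly, and none for rho. Cldn4 went with the urothelium markers, r = 0.80 (permutation p = 0.00150, adjusted p = 0.0497) and rho = 0.79 (permutation p = 0.00356, adjusted p = 0.0854). It was 0.72 without the 2 farthest arrays, 0.90 in males and 0.64 in females. Cldn4 ran against the leukocyte markers, r = -0.77 (permutation p = 0.00207, adjusted p = 0.0497) and rho = -0.71 (permutation p = 0.00266, adjusted p = 0.0854), with -0.55 without the 2 farthest arrays, -0.90 in males and -0.26 in females. Cldn8 against the endothelium markers had r = -0.62 (permutation p = 0.00117, adjusted p = 0.0497) and rho = -0.75 (permutation p = 0.00193, adjusted p = 0.0854), and -0.62 without the 2 farthest arrays, -0.65 in males and -0.72 in females.

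Cldn5 and the urothelium markers had r = -0.79 (permutation p = 0.00319, adjusted p = 0.0574) and rho = -0.78 (permutation p = 0.00478, adjusted p = 0.0860), with -0.71 without the 2 farthest arrays, -0.93 in males and -0.54 in females. With the endothelium markers it had r = 0.64 (permutation p = 0.0389, adjusted p = 0.180) and rho = 0.47 (permutation p = 0.117, adjusted p = 0.384). That r was 0.35 without the 2 farthest arrays, 0.86 in males and -0.12 in females, so it did not hold within females. With the leukocyte markers Cldn5 had r = 0.72, Cldn1 -0.69 and Ocln -0.66, and Cldn4 had -0.72 with the endothelium markers, none of which passed. Cldn1, Cldn8, Tjp1, F11r, Cldn7 and Ocln had r of 0.68, 0.67, 0.60, 0.58, 0.54 and 0.44 with the urothelium markers, and Cldn3 had -0.32, none of which passed. With quantile normalization none of the 3 relations passed (adjusted p = 0.0588 for each, permutation tests), while that of Cldn4 and Cldn5 did (r = -0.85, permutation test, adjusted p = 0.0306).

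**Figure D4:**
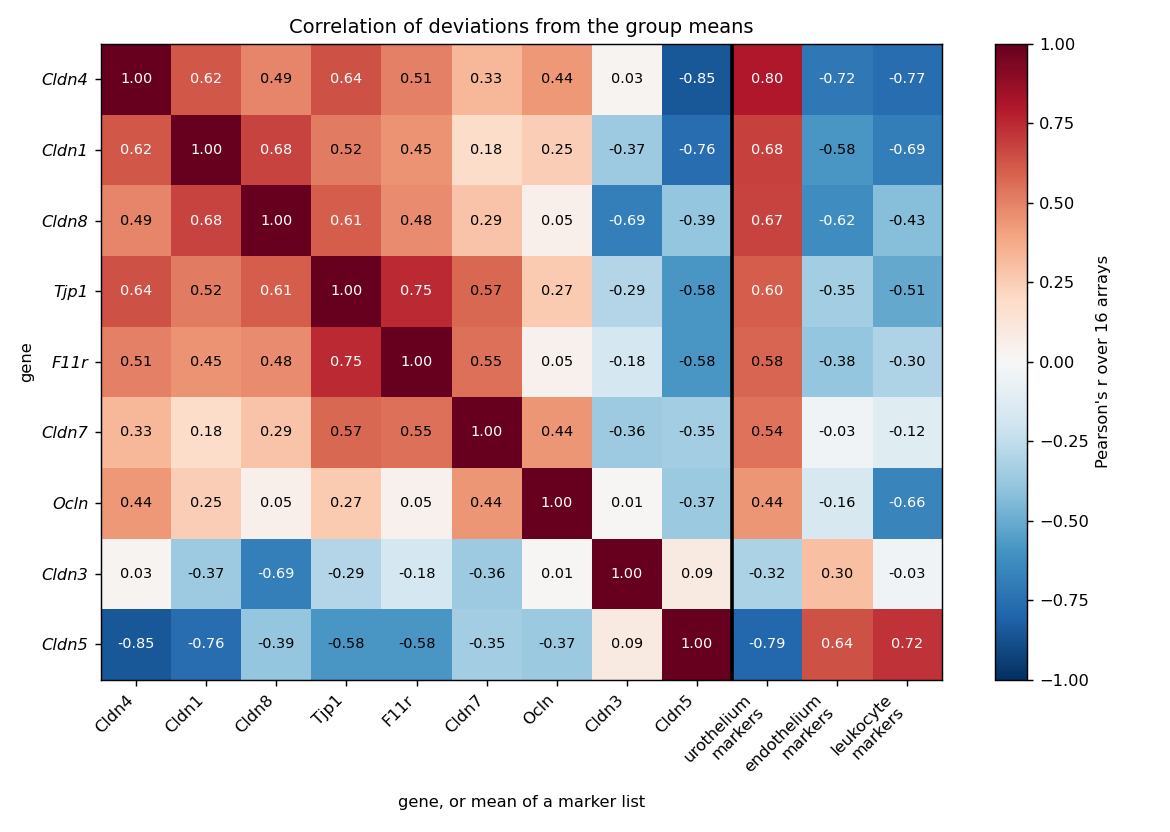
Pearson correlations of the deviations from group means over 16 arrays, with the genes in rows, and the genes and the means of 3 marker lists in columns. Red is above 0 and blue below, and the number in each cell is r. Cldn5 is blue against all genes except Cldn3, and Cldn4 and Cldn8 are red with the urothelium markers (0.80 and 0.67). Cldn4 is blue against the leukocyte markers (-0.77).

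The genes whose deviations were most like each gene's were found among all genes with a symbol and are given as a description, since they are the highest of 15940 genes with a symbol. For Cldn4 they were Sgk1 (r = 0.92), a kinase that regulates epithelial sodium transport, and Pramel24 (0.89). For Cldn7 they were Eid3 (0.91) and Lypd3 (0.89), for Cldn8 they were Cldn20 (0.91) and Snx31 (0.89), and for Cldn5 Slc26a10 and Tmem35a (both 0.92). For Cldn1 they were Mrgpra3 (0.86) and Eps8 (0.85), and for Cldn3 Lzic (0.90) and Bmp1 (0.89). For Ocln they were Mst1r (0.88) and Tox4 (0.87), for Tjp1 they were Wdr46 (0.91) and Mfap1a (0.90), and for F11r Actr1a (0.96) and Gnpnat1 (0.95).

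Other genes of the junction were read from lists. Of 76 such genes 68 were tested, and 1 was called in males and 0 in females. In females 7 had an unadjusted limma p under 0.05, 5 higher and 2 lower in AGED mice, and in males 11, 2 higher and 9 lower. These are 10.3% of the 68 in females and 16.2% in males, close to the 10.5% and 16.2% of all genes. Their median change was -0.09 in males and 0.07 in females. Of the 68, 1 was higher and 3 were lower on every AGED male array than on every MAT male array. Between the female groups 2 were higher and 2 lower in this way. Of all genes, 7.82% were so separated in males and 10.8% in females.

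The gene called was Cldn10, a claudin that forms ion-selective pores, with log2 signals of 0.15, 0.14, -0.13 and 0.16 in MAT males and of -0.54, -1.14, -1.22 and -1.38 in AGED males. Every AGED male array was below every MAT male array. It fell by 1.15 on the log2 scale (SE 0.21, limma adjusted p = 0.0130), so that the MAT level was 2.22-fold the AGED level. In females the signals were 0.40, -0.03, -0.48 and 0.07 on MAT arrays and -0.40, -0.90, -0.25 and -0.39 on AGED arrays, with overlap and a change of -0.47 ± 0.21 (SE, limma adjusted p = 0.444). The male and female changes of Cldn10 did not differ after adjustment (difference -0.68 ± 0.30, SE, limma adjusted p = 0.471). With each array left out in turn its male adjusted p stayed between 0.0035 and 0.0410 (limma), and with each sex fitted alone it was 0.118.

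Of the 18 other claudins 10 were tested, and 8 of these 10 were below 0 in males, with a median of -0.41, against 5 of 10 in females, with a median of -0.0016. Of all genes 50.2% were above 0 in males and 49.1% in females. An unadjusted limma p under 0.05 was seen in males for 5 of the 10, all lower in AGED mice, against 16.2% of all genes. In females 1 of the 10 was higher and 1 lower at that p, against 10.5% of all genes. Of the 8 not tested, 7 had a probe that was well above background on at most 3 arrays, among them Cldn2, Cldn6 and Cldn18, and Cldn25 was not matched. Cldn11, known from myelin and Sertoli cells, had the largest change in both sexes, -1.46 ± 0.42 (SE, limma adjusted p = 0.0946) in males and -0.80 ± 0.42 (SE, limma adjusted p = 0.527) in females. Its probe was dim, well above background on 15 of 16 arrays and on 3 of the 4 AGED male arrays. The AGED male signals ranged from -5.65 to -2.85 (SD 1.14), against an SD of 0.20 in MAT males. Schwann cell markers, with 5 of 6 below 0 in males and 4 of 6 in females, had medians of -0.39 and -0.47, and their part in the Cldn11 values was not tested. Cldn15, a cation pore claudin of the intestine, was higher on every AGED female array than on every MAT female array and is named here for that after its values were seen. Its change was 0.72 ± 0.16 (SE, limma adjusted p = 0.108) in females and -0.41 ± 0.16 (SE, limma adjusted p = 0.225) in males, and the difference of the changes had an adjusted p of 0.0746 (limma).

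Among the 5 proteins of tricellular contacts and the MARVEL family, none was called. Marveld2 (tricellulin) had the largest male change, -0.39 ± 0.17 (SE, limma adjusted p = 0.277), and Lsr (angulin 1) the largest female change, 0.30 ± 0.14 (SE, limma adjusted p = 0.473). Of the 5 junctional immunoglobulin proteins none was called. Cxadr, the coxsackievirus and adenovirus receptor, had -0.38 ± 0.18 (SE, limma adjusted p = 0.309) in males, and Igsf5 had 0.47 ± 0.36 (SE, limma adjusted p = 0.713) in females. Of the 24 plaque and polarity genes none was called. Amotl2, of the angiomotin family, was higher on every AGED male array than on every MAT male array, by 0.95 ± 0.25 (SE, limma adjusted p = 0.0678). Pard6g, a polarity protein, had the largest female change of that list, 0.38 ± 0.17 (SE, limma adjusted p = 0.463).

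None of the 11 adherens junction genes was called, and Cdh3 (P-cadherin) had the largest change in both sexes, 0.67 ± 0.33 (SE, limma adjusted p = 0.336) in males and 0.28 ± 0.33 (SE, limma adjusted p = 0.836) in females. Of the 13 regulators of the epithelial barrier none was called. Ovol1, an epithelial transcription factor, had -1.42 ± 0.61 (SE, limma adjusted p = 0.263) in males. The plot of both sexes shows Cldn10 and Cldn11 below 0 in both, and most of the 9 genes near the middle.

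**Figure D5:**
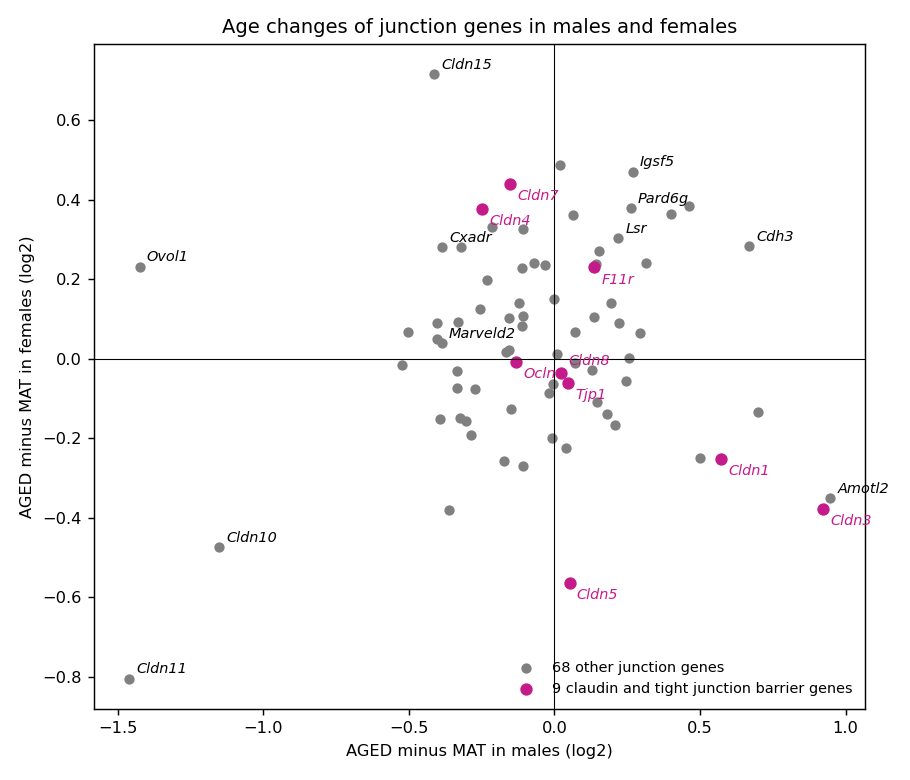
Fitted AGED minus MAT change on the log2 scale in males (horizontal) and females (vertical), with 1 point per gene, 68 other junction genes in grey and the 9 claudin and tight junction barrier genes in magenta. Cldn10 (-1.15 in males, -0.47 in females) was the one gene called, and the magenta points lie between -0.25 and 0.92 in males and between -0.56 and 0.44 in females.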

How the data were processed

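The authors extracted the arrays with Feature Extraction (10.7.3.1 per the file headers) and deposited the intensity of each spot, background-subtracted and not scaled across arrays, with a log2 table centred by probe that served as an alternative. From the processed intensity, log2 values were taken, less the 75th percentile of each array. Control spots and 399 flagged probe values were left out, and no spot was saturated. RefSeq accessions (GRCm38.p6) named 26582 probes, and the filter on dim signals asked for 4 of the 16 arrays well above background (36982 probes). A gene with several was tested on its brightest. Groups were compared with limma 3.58.1 (R 4.3.3) in 1 model of 4 group means (12 residual degrees of freedom), single genes also with exact permutation tests over arrays (SciPy 1.17.1), and correlations with permutations within groups. The procedure was tested on simulated data. Named genes were, beside the 9, every called gene and the largest change per sex of each junction list, the first 3 of each marker list, and the 2 most alike per gene. The values of 1 gene under this rule are not reported here. The genes, lists and rule were chosen with earlier results of these data known. Alternatives covered scaling, background, filters, probes, test, weights, blocks and left-out arrays, and the scaling of the correlations was added after seeing the data. Each array is 1 mouse, and their number limits the precision.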

Additional observations from a re-analysis of the deposited data

Results flagged for a closer look

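In 5 of 44 groups of 4 arrays (11.4%), over the 9 genes and both probes of Cldn4 and Ocln, 1 array was separated from the others by more than 0.829 of the range of the group, where chance gives about 1 in 20. Cldn7 was highest in MAT male replicate 2 (gap of 0.883 of the range). Cldn8 was lowest in MAT male replicate 4 (0.846) and in AGED female replicate 4 (0.876). The other Cldn4 probe was lowest in MAT female replicate 1 (0.861) and in AGED female replicate 4 (0.909). Among the lists of genes, 2 of 60 groups (3.33%) had such an array, in each case MAT male replicate 4, which was highest in the mean of the endothelium markers (0.840) and of the leukocyte markers (0.843). The same array was the lowest of its group in Cldn1, Cldn4, Cldn8, Tjp1 and F11r and the highest in Cldn3, Cldn5 and Ocln.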

How the results depend on the processing

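Calls asked for at least 2-fold, and without that limit 461 genes in males and 60 in females passed, 0 of the 9 among them. The dim Cldn3 and second Ocln probes had 1 array not well above background. Under 19 alternatives and 16 left-out arrays no gene of the 9 was called by age in either sex. For 1 alternative, the slide as a random block, the estimated correlation was 0, so it repeated the main fit. Among the other comparisons, Cldn3 alone was called between MAT males and females by the methods' t-test and by limma, both without adjustment (-1.53). It was also called with array weights (-1.75, limma adjusted p = 0.011), while with normexp the difference was smaller (-0.69, limma adjusted p = 0.322). Cldn7 alone was called in the difference of the age changes by limma without adjustment (-0.59). The other junction genes called in males numbered 2 with normexp, with no filter and by the methods' t-test without adjustment, 3 by limma without adjustment, 0 by the methods' t-test with adjustment and with each sex fitted alone, and 1 to 3 with an array left out, 3 without AGED male replicate 2. The change of Cldn10 in males was below 0 throughout (adjusted p = 0.221 by the methods' t-test, 0.118 with each sex alone).

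Small changes turned sign. In males these were Cldn5, Cldn8 and Tjp1 with the median scaling (-0.0107, -0.0394, -0.0143), Cldn7, Ocln and F11r with normexp (0.12, 0.0904, -0.26), and Cldn8, Tjp1 and F11r with array weights (-0.0404, -0.0661, -0.14). In females they were Ocln with quantile normalization (0.00935) and Cldn8 and Ocln with array weights (0.0408, 0.00834). With an array left out, the ranges were -0.10 to 0.24 (Cldn5), -0.11 to 0.0870 (Cldn8), -0.0941 to 0.13 (Tjp1) and -0.29 to 0.43 (F11r) in males, and -0.0945 to 0.12 (Cldn8) and -0.13 to 0.0578 (Ocln) in females. Without MAT male replicate 4 the F11r male change was -0.29. Normexp moved the median change of all genes in males to 0.12. It moved the median difference of all genes between AGED males and females from 0.09 to 0.25. With it Cldn1, Cldn5, Cldn8 and Ocln differed between AGED males and females at limma adjusted p of 0.00913, 0.0138, 0.0300 and 0.0281, short of 2-fold. The cause of none of these was tested.

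Same-numbered arrays did not deviate together (correlations from -0.147 to 0.155), so the numbers did not pair them. With the replicate number as a block, 184 genes were called in males in place of 228 and 3 in females in place of 51, 0 of the 9 among them. The correlation of Cldn4 and Cldn5 passed with quantile (-0.85) and median scaling (-0.78, permutation test, adjusted p = 0.0300). With quantile normalization the correlations of Cldn4 with the urothelium and leukocyte markers (0.79, -0.74) and of Cldn8 with the endothelium markers (-0.56) did not pass, and with the median scaling the latter 2 (-0.72, -0.62) did not.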
